A study of Arabidopsis thaliana with 18 samples.

Results

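Messenger RNA of 9 Arabidopsis thaliana genes that act in the active removal of DNA methylation was followed across 6 groups of whole seedlings. The genes were chosen by function and by locus name, with earlier results of these data known. They were ROS1 (AT2G36490), DME (AT5G04560), DML2 (AT3G10010), DML3 (AT4G34060), IDM1 (AT3G14980), IDM2 (AT1G54840), MBD7 (AT5G59800), ZDP (AT3G14890) and APE1L (AT3G48425), 9 of the 32399 loci listed in the count files. Reads of all transcript models of a locus were summed and scaled to CPM, the count relative to the counted reads of the library at a common size. Of the 9, 5 passed the filter on low counts and were tested, while DME, DML3, IDM2 and ZDP did not pass it.

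In plants, active demethylation starts with DNA glycosylases that cut 5-methylcytosine out of DNA: ROS1, DME, DML2 and DML3 form this family. IDM1, a histone acetyltransferase, IDM2, a protein with an alpha-crystallin domain, and MBD7, a protein that binds methylated CG sites, bring ROS1 to a subset of its sites. ZDP, a 3′ DNA phosphatase, and APE1L, an apurinic/apyrimidinic endonuclease, process the gap that the glycosylases leave. ROS1 expression is known to depend on DNA methylation at its own promoter, and DME is best known for its action in the central cell of the female gametophyte.

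The groups were wild type and the mutant lines ros1-3 and ros1-4, each kept for 6 h in water with 50 µM abscisic acid (ABA), a stress hormone, or with its solvent (mock). All seedlings were 12 d old, and each library came from 1 pool of 5 plants. Every group had 3 libraries, with 3304038 to 10275773 reads counted per library. The labels name the 2 mutant lines by allele and genotype only, and give neither the place of the mutations nor the accession of wild type. Reads were summed over the whole ROS1 locus, so the level below does not show whether an intact ROS1 mRNA was made. Whether pools came from separate growth or treatment rounds is not stated, so p-values here measure only how these libraries varied. In RNA from whole seedlings, fewer cells of a type and less RNA per cell cannot be told apart.

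Treatment and tissue were checked with gene lists. All 8 listed ABA-responsive genes rose with ABA in each genotype, and their median log2 fold change was 5.29 for wild type, 5.32 for ros1-3 and 5.34 for ros1-4. Leaf and root markers were both present, and the summed level of the 5 listed seed storage genes was 0 to 2.79 CPM. Multiply aligned reads, which were not counted, differed by genotype. In mock their share of a file ranged over 9.80% to 13.03% for wild type, 6.53% to 9.45% for ros1-3 and 3.46% to 4.62% for ros1-4. Under ABA the ranges were 6.32% to 11.4%, 5.60% to 7.48% and 3.86% to 4.46%.

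ROS1 was the member that separated the genotypes. It was lower in both mutant lines than in wild type, and lower in ros1-4 than in ros1-3 in mock. The gene lies on the minus strand at chr2:15307907-15314807 in the TAIR10.1 annotation from RefSeq. In mock the wild-type libraries read 94.6, 82.6 and 86.1 CPM, the ros1-3 libraries 51.2, 53.4 and 57.7 CPM, and the ros1-4 libraries 38.4, 31.5 and 33.5 CPM. Under ABA they read 96.5, 107.9 and 120.3 CPM in wild type, 47.3, 56.0 and 58.3 CPM in ros1-3, and 35.5, 39.1 and 47.6 CPM in ros1-4. The wild-type libraries lay above all mutant libraries, and all ABA libraries of wild type above its mock libraries. In mock the mutant lines did not overlap, but under ABA the highest ros1-4 library lay just above the lowest ros1-3 library. Of all genes tested, 49.0% had no overlap between ABA and mock in wild type. Against wild type in mock 16.6% had none in ros1-3 and 11.6% in ros1-4, and under ABA 19.3% and 13.1%. Between the lines in mock it was 16.4%. These levels rest on 130 to 866 ROS1 reads per library.

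The direct comparison of the mutant lines gave a log2 fold change of 0.64 in mock, higher in ros1-3 (SE 0.12, edgeR adjusted p = 0.00657). ROS1 was the only member called there, against 1.27% of the 15853 genes tested. With the share of multiply aligned reads as a covariate, that call was lost (log2 0.56, edgeR adjusted p = 0.113). Under ABA the fold change between the lines was 0.40 (SE 0.12, 95% interval 0.16 to 0.64, edgeR adjusted p = 0.0704), which did not pass. Without ros1-4 ABA replicate 3 it passed, at 0.53 (edgeR adjusted p = 0.0242). No member was called in that comparison by edgeR or DESeq2, where edgeR called 2.79% of all genes tested, and ROS1 alone had an unadjusted p below 0.05.

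Against wild type, ROS1 was again the only member called in each of the 4 comparisons, and it was lower each time. In mock the log2 fold change was -0.70 in ros1-3 (SE 0.11, edgeR adjusted p = 0.00102), where 1.32% of the genes tested were called. It was -1.34 in ros1-4 (SE 0.12, edgeR adjusted p = 3.68e-07), where 0.448% were called. Under ABA it was -1.003 (SE 0.11, edgeR adjusted p = 6.16e-06) and -1.40 (SE 0.11, edgeR adjusted p = 2.82e-08), with 1.72% and 0.681% called. The multiply aligned share moved with genotype as given above. As a covariate it took the ros1-3 call in mock to an edgeR adjusted p = 0.0532 (log2 -0.62) and left ros1-4 in mock called (log2 -1.18, edgeR adjusted p = 0.0322).

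**Figure D1:**
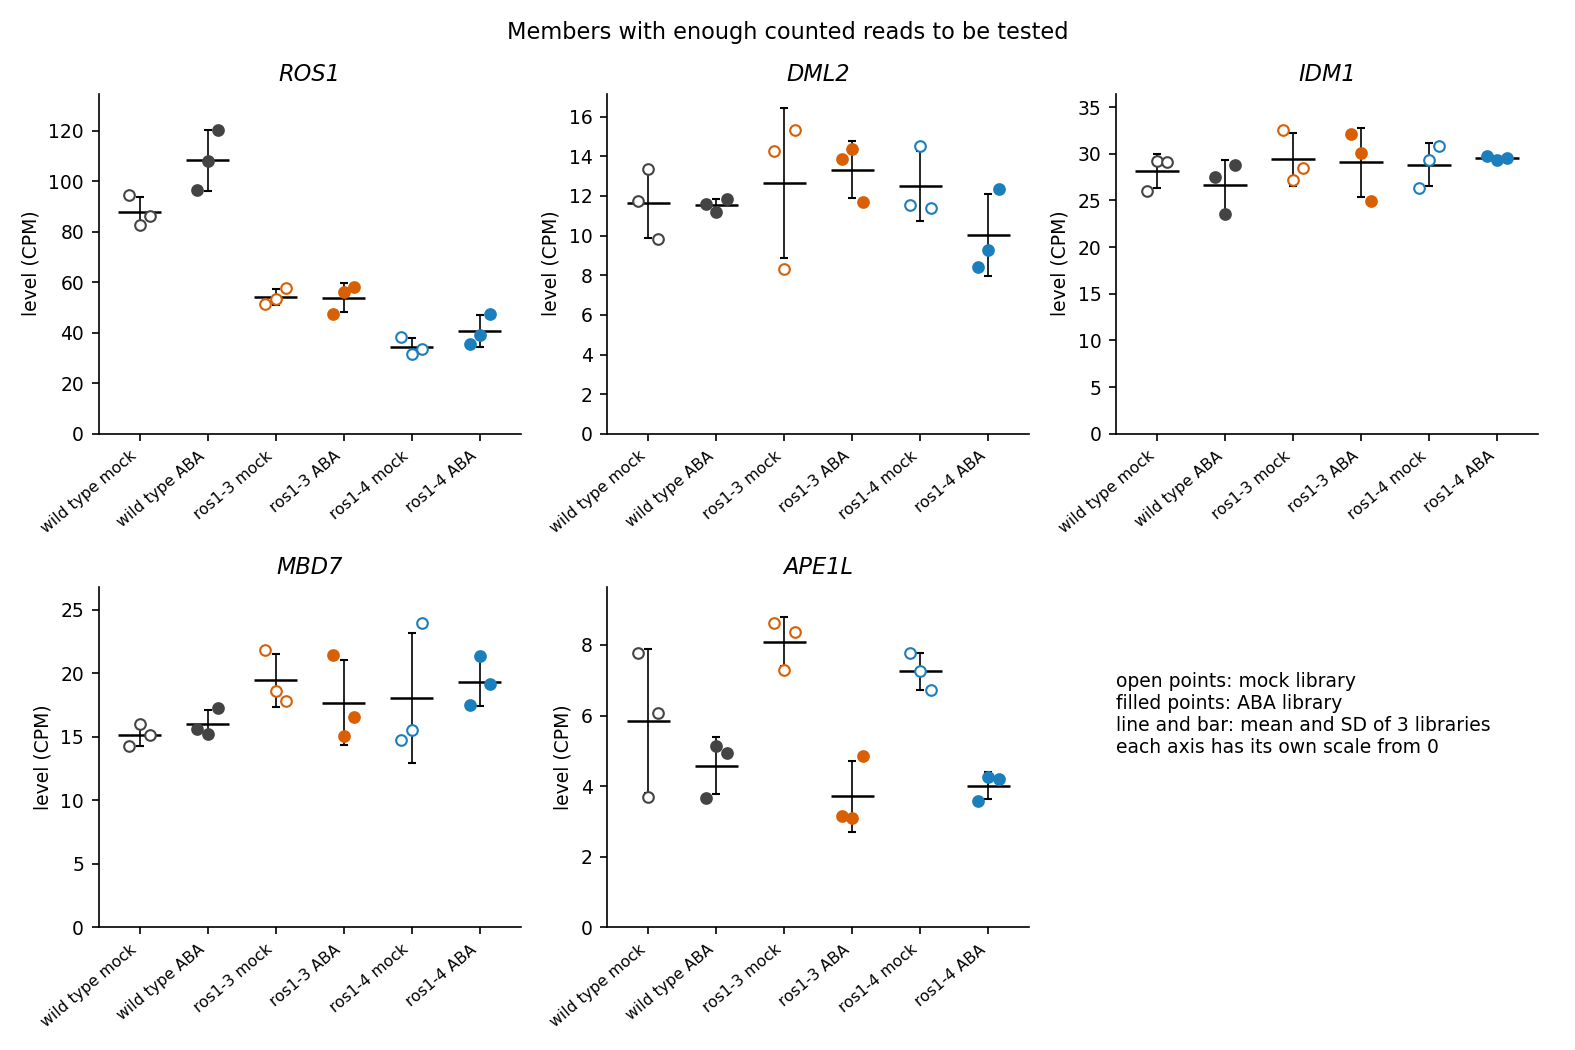
Level in CPM (vertical axis, from 0, own scale for each gene) of the 5 tested members in each library of the 6 groups. Open points are mock and filled points ABA libraries, with the line and bar giving mean and SD of 3 libraries. All wild-type libraries of ROS1 lie above all mutant libraries, and APE1L is lower under ABA in both mutant lines.

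The 20 tested genes on each side of ROS1, chosen after the data were seen, were set beside it. Their starts lie at -103.8 to 124.8 kb from the ROS1 start along the chromosome. In ros1-4 none of the 40 neighbours was called in mock or under ABA, where 0.448% and 0.681% of all genes tested were called. ROS1 had the lowest fold change of the 41 genes in ros1-4. In ros1-3, 4 neighbours in mock and 2 under ABA had a fold change below that of ROS1. Of all genes tested, 1.32% were called in ros1-3 in mock and 1.72% under ABA. Among the neighbours, 2 of the 40 were called lower in mock (AT2G36320 and AT2G36470). Under ABA 3 were higher and 4 lower, the same pair among the lower, though AT2G36320 lost its ABA call in 7 of 13 alternatives, among them each ros1-3 ABA library and wild type ABA replicate 1 or 3 left out. AT2G36470 starts 13.8 kb from ROS1 and changed by a log2 of -0.88 in mock (edgeR adjusted p = 0.00393) and -1.21 under ABA (edgeR adjusted p = 4.69e-05). In ros1-4 its log2 fold changes were -0.01 and -0.09. AT2G36540, 10.4 kb away, had a log2 fold change of 1.85 in ros1-3 under ABA (edgeR adjusted p = 0.0084). These neighbours were named after their values were seen.

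**Figure D2:**
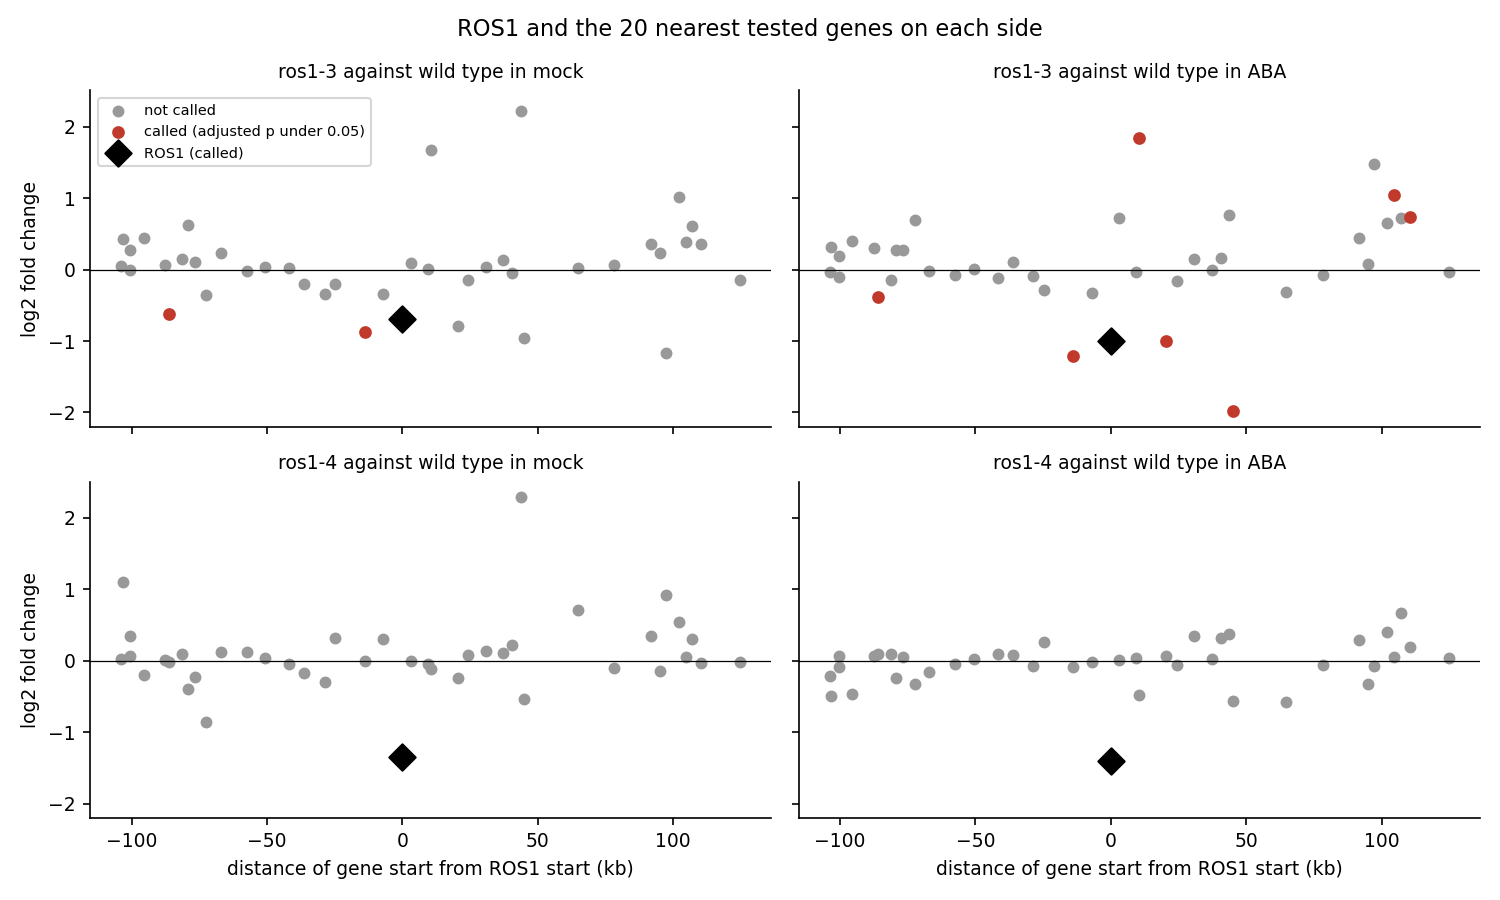
Log2 fold change against wild type (vertical axis) of ROS1 (diamond) and 40 neighbouring tested genes by distance of their start from the ROS1 start in kb (horizontal axis), for each mutant line and treatment. Red points passed an edgeR adjusted p of 0.05: 2 and 7 neighbours in ros1-3, and 0 in ros1-4. Of all genes tested, 1.32% in mock and 1.72% under ABA passed in ros1-3, and 0.448% and 0.681% in ros1-4.

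ROS1 rose slightly with ABA in wild type, and was the only member called there, against 38.5% of all genes tested. The log2 fold change was 0.30 (SE 0.10, edgeR adjusted p = 0.0257), close to 0.304, the median size of change over all genes tested. Leaving out wild type ABA replicate 2 or 3, or wild type mock replicate 2 or 3, ended the call (edgeR adjusted p = 0.0534 to 0.135 over these). In ros1-4 the fold change was 0.24 (SE 0.12, 95% interval -0.01 to 0.50, edgeR adjusted p = 0.121). It passed without ros1-4 ABA replicate 1, at 0.34 (edgeR adjusted p = 0.0438). In ros1-3 it was 0.00 (SE 0.12, 95% interval -0.25 to 0.25, edgeR adjusted p = 0.993).

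The difference between genotypes in the ABA response was tested with an interaction term. For ROS1 it was -0.30 in ros1-3 (SE 0.16, edgeR adjusted p = 0.994, unadjusted p = 0.0683) and -0.06 in ros1-4 (SE 0.16, edgeR adjusted p = 1). A different ABA response of ROS1 in the mutant lines was therefore not shown. Over all genes, 0% passed either interaction with edgeR, while 743 and 521 genes had an unadjusted p below 0.05. DESeq2 called 11 genes in ros1-3 and 1 in ros1-4, and no member.

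DML2, a glycosylase that acts beside ROS1 in vegetative tissue, was called in no comparison. It lies on the minus strand at chr3:3081735-3088550. Wild-type libraries read 11.8, 13.4 and 9.85 CPM in mock and 11.6, 11.2 and 11.8 CPM under ABA. The ros1-3 libraries read 14.3, 8.31 and 15.3 CPM in mock and 13.9, 14.4 and 11.7 CPM under ABA. The ros1-4 libraries read 11.5, 14.5 and 11.4 CPM in mock and 8.41, 9.27 and 12.4 CPM under ABA. Every group overlapped every other, so the order of the 6 groups is not resolved. Against wild type the log2 fold change was 0.15 in ros1-3 mock (95% interval -0.27 to 0.56) and 0.12 in ros1-4 mock (95% interval -0.29 to 0.53). With ABA in wild type it was 0.02 (95% interval -0.37 to 0.40). DML2 rested on 33 to 103 reads per library.

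The 250 bases upstream of these genes are shown because they are the 2 tested glycosylase genes and because the treatment was ABA. Capitals mark ACGTG, the core of the ABA-responsive element to which ABA-activated bZIP factors bind, searched on both strands. The sequences are on the sense strand of each gene, 5′ to 3′, from the RefSeq TAIR10.1 genome, at chr2:15314808-15315057 (minus strand) and chr3:3088551-3088800 (minus strand).
ROS1 upstream: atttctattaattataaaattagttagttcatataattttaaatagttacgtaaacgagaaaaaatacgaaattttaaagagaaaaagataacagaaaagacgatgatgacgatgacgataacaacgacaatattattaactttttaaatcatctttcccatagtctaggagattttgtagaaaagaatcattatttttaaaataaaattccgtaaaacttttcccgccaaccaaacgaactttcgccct
DML2 upstream: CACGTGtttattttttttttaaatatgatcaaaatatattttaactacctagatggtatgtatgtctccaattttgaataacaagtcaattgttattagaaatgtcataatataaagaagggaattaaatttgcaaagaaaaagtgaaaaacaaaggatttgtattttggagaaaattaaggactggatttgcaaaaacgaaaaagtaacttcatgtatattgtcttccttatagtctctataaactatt
The ROS1 window holds 0 matches. The DML2 window holds 2 overlapping matches, 1 on each strand, which form the palindrome CACGTG at 250 bases before the start. Among 27443 protein-coding genes, 22.9% held ACGTG and 6.49% held CACGTG in this window. A match of letters does not show binding, and its absence speaks only of these letters in this window.

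IDM1 had the narrowest range of the tested members over the 18 libraries, by the ratio of highest to lowest CPM. It lies on the minus strand at chr3:5039812-5045525, and 219 of its bases overlap AT3G14981 on the other strand, whose reads cannot be told apart because it is not stated whether reads were counted by strand. Wild-type libraries read 26.03, 29.2 and 29.1 CPM in mock and 27.5, 23.5 and 28.8 CPM under ABA. The ros1-3 libraries read 32.5, 27.2 and 28.4 CPM in mock and 32.2, 30.1 and 24.95 CPM under ABA. The ros1-4 libraries read 26.3, 29.3 and 30.8 CPM in mock and 29.8, 29.3 and 29.5 CPM under ABA. The highest of the 18 libraries exceeded the lowest 1.38-fold, against 3.82-fold for ROS1, 2.78-fold for APE1L, 1.85-fold for DML2 and 1.68-fold for MBD7. Counting error widens such a ratio where reads are few. IDM1 rested on 102 to 293 reads per library, ROS1 on 130 to 866, MBD7 on 57 to 160, DML2 on 33 to 103 and APE1L on 13 to 61. The part of counting error in these ratios was not tested. No comparison of IDM1 passed. Under ABA all ros1-4 libraries lay above those of wild type, a comparison in which 13.1% of all genes tested had no overlap. The log2 fold change of IDM1 there was 0.15 (SE 0.11, edgeR adjusted p = 0.812). With ABA its log2 fold change was -0.09 in wild type (95% interval -0.31 to 0.14), -0.02 in ros1-3 (95% interval -0.27 to 0.22) and 0.04 in ros1-4 (95% interval -0.19 to 0.26).

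MBD7, on the minus strand at chr5:24094359-24096532, had higher means in the mutant lines, but no comparison passed. In mock it read 14.3, 16.0 and 15.1 CPM in wild type, 21.8, 18.6 and 17.8 CPM in ros1-3, and 14.7, 15.5 and 23.9 CPM in ros1-4. Under ABA it read 15.6, 15.2 and 17.2 CPM in wild type, 21.4, 15.1 and 16.6 CPM in ros1-3, and 17.5, 21.3 and 19.2 CPM in ros1-4. The mutant libraries lay wholly above wild type in ros1-3 mock and in ros1-4 ABA, and overlapped it in the other comparisons with wild type. In mock, 16.6% of all genes tested had no overlap between ros1-3 and wild type, and under ABA 13.1% had none between ros1-4 and wild type. The log2 fold change of MBD7 was 0.37 in ros1-3 mock (SE 0.17, edgeR adjusted p = 0.38, unadjusted p = 0.0418) and 0.27 in ros1-4 ABA (SE 0.15, edgeR adjusted p = 0.72).

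APE1L, the endonuclease that follows the glycosylases, fell with ABA in both mutant lines. It lies on the plus strand at chr3:17931705-17934744 and shares 9 bases with AT3G48420 on the same strand. In mock the libraries read 7.76, 3.70 and 6.07 CPM in wild type, 8.61, 7.30 and 8.36 CPM in ros1-3, and 7.77, 7.27 and 6.73 CPM in ros1-4. Under ABA they read 3.67, 5.13 and 4.94 CPM in wild type, 3.17, 3.10 and 4.86 CPM in ros1-3, and 3.57, 4.27 and 4.20 CPM in ros1-4. In both mutant lines every ABA library lay below every mock library. The treatments had no overlap for 48.9% of all genes tested in ros1-3 and for 47.0% in ros1-4. In wild type the treatments overlapped, because 1 mock library, at 3.70 CPM, lay among the ABA libraries. The gene had few reads, 13 to 61 per library.

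With ABA the log2 fold change of APE1L was -1.12 in ros1-3 (SE 0.26, edgeR adjusted p = 0.0015) and -0.85 in ros1-4 (SE 0.23, edgeR adjusted p = 0.0059). APE1L was the only member called in either, where 38.2% of all genes tested were called in each line. In wild type it was -0.36 (SE 0.23, 95% interval -0.83 to 0.12, edgeR adjusted p = 0.233). The interaction was -0.76 in ros1-3 (SE 0.35, edgeR adjusted p = 0.994, unadjusted p = 0.0392) and -0.50 in ros1-4 (SE 0.33, edgeR adjusted p = 1). A response that differs from wild type was thus not shown. Leaving out wild type mock replicate 2, its lowest mock library, took the wild-type fold change to -0.56 (edgeR adjusted p = 0.0572). In mock APE1L read 0.48 higher on the log2 scale in ros1-3 than in wild type (SE 0.23, edgeR adjusted p = 0.399).

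**Figure D3:**
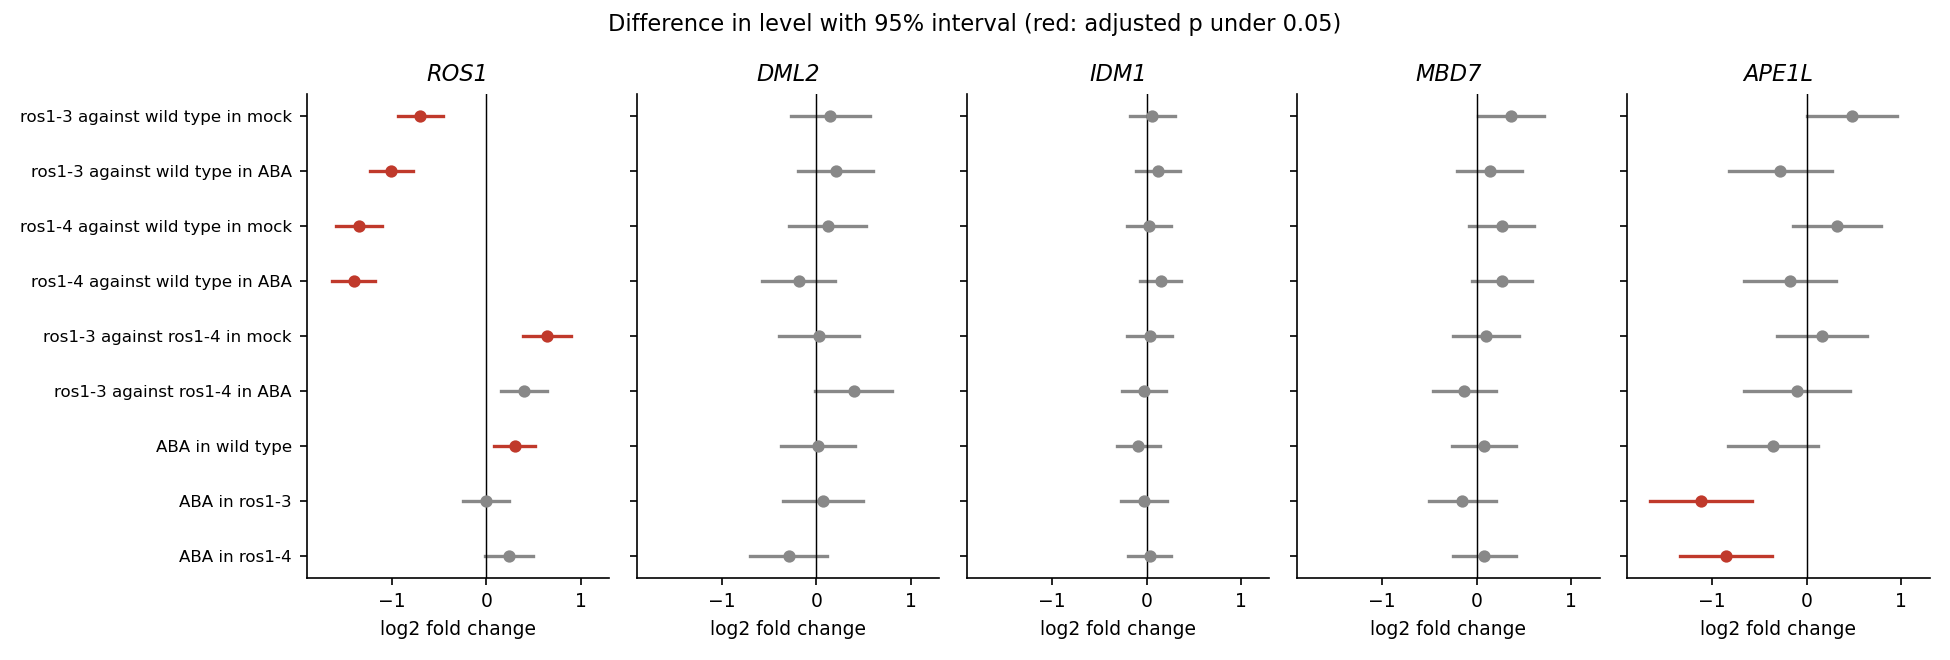
Log2 fold change (horizontal axis) with its 95% interval for the 5 tested members in 9 comparisons (vertical axis). Red marks an edgeR adjusted p under 0.05: ROS1 in 5 comparisons between genotypes and with ABA in wild type, and APE1L with ABA in both mutant lines.

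DME, DML3, IDM2 and ZDP were barely counted. Over all 18 libraries they had 28, 47, 36 and 36 reads, and no library had more than 6 reads of any of them. Each is listed in the files with 2 transcript models, whereas the 5 tested members are listed with 1. In this counting a read that fits more than 1 model goes to the uncounted ambiguous reads, which were 32.1% to 33.2% of ambiguous and counted reads together. Of all loci with 1 model 50.7% passed the filter, of those with 2 models 44.7%, and of those with 3 or more 31.0%. The part of low expression and of lost reads in these 4 values cannot be told apart here, so no level is set beside those of the tested members.

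DML3 (plus strand, chr4:16313366-16319426) had more reads under ABA in each genotype. Its mock libraries held 2, 0 and 0 reads in wild type, 2, 1 and 1 in ros1-3, and 1, 1 and 1 in ros1-4. Its ABA libraries held 5, 3 and 4 reads, 5, 4 and 5, and 3, 3 and 6. Every ABA library held more reads than any mock library, with 38 reads in the 9 ABA libraries against 9 in the 9 mock libraries. In CPM the treatments overlapped in wild type, because library depths differed, and not in the mutant lines, where 48.9% and 47.0% of all genes tested had no overlap either. Scaled by library size, the ratio of ABA to mock was 4.79 in wild type (exact 95% interval 1.07 to 44.0), 2.98 in ros1-3 (0.935 to 12.4) and 2.51 in ros1-4 (0.678 to 13.9). Without molecular identifiers, such intervals account for counting error alone. Fitted without the low count filter, the ABA response had an edgeR adjusted p = 0.0864, 0.134 and 0.276, and none passed.

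DME (plus strand, chr5:1309099-1318520) had no read in the 3 ros1-3 mock libraries, which allows up to 0.243 CPM for 3 reads over the group. It had 2, 1 and 3 reads in wild type mock and 1, 1 and 3 in ros1-4 mock. Under ABA it had 0, 1 and 1 reads in wild type, 2, 1 and 2 in ros1-3, and 3, 4 and 3 in ros1-4. Under ABA the ratio of ros1-4 to wild type was 5.32 by library size (exact 95% counting interval 1.13 to 50.0), and its edgeR adjusted p was 0.582 without the filter. Without the filter, the smallest unadjusted edgeR p of DME was 0.00686, for the interaction in ros1-3, at an edgeR adjusted p = 0.984. The smallest edgeR adjusted p of DME was 0.0739, for ABA in ros1-3. For ros1-3 against wild type in mock it was 0.401, and no comparison of DME passed.

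IDM2 (minus strand, chr1:20452593-20454266) had 10, 7 and 2 mock reads in wild type, ros1-3 and ros1-4, and 5, 6 and 6 ABA reads. It shares 79 bases with AT1G54830 on the other strand. ZDP (plus strand, chr3:5008676-5013265) had 7, 6 and 3 mock reads and 5, 6 and 9 ABA reads in the same order. For both genes every ABA to mock ratio had a counting interval that included 1.

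**Figure D4:**
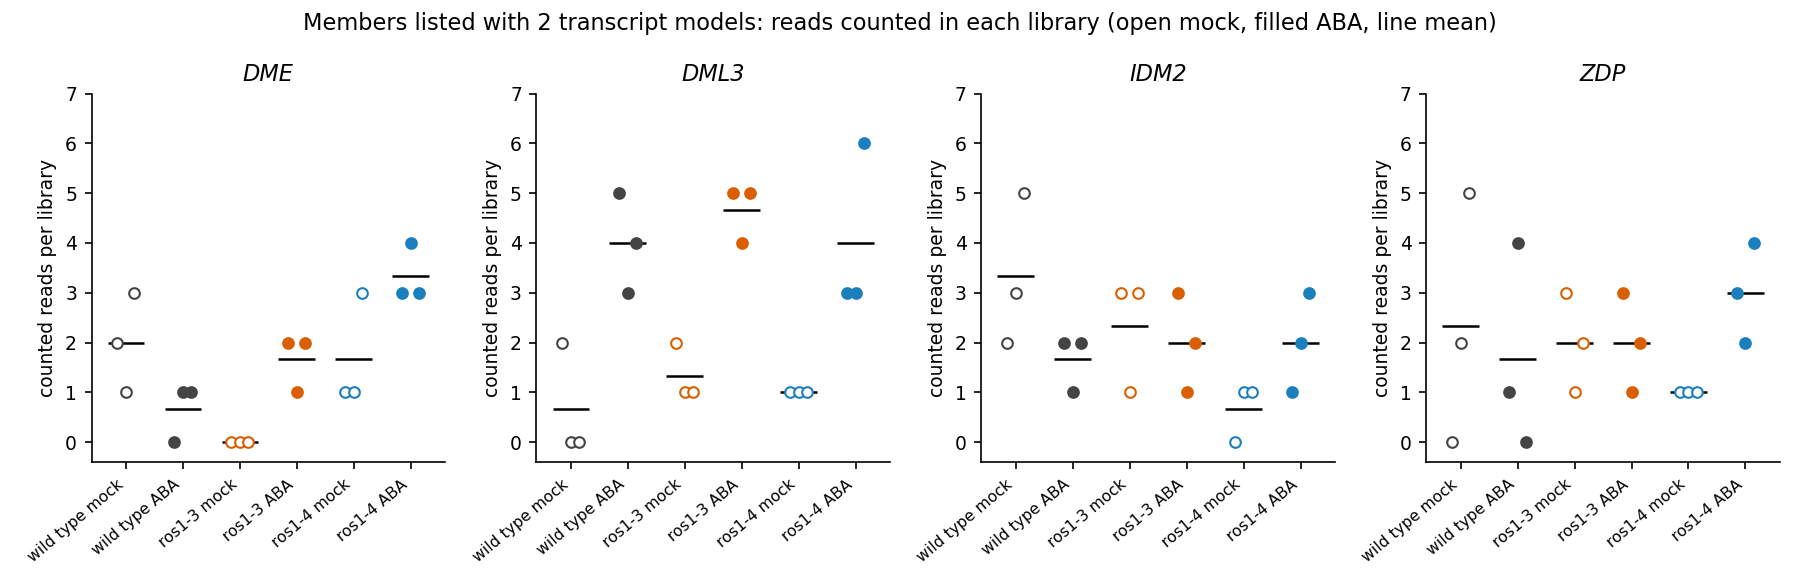
Counted reads per library (vertical axis) of the 4 members listed with 2 transcript models, for the 6 groups, open points mock, filled points ABA and lines the group mean. No value exceeds 6 reads, and DML3 has 9 reads in all mock and 38 in all ABA libraries.

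Between genes, levels were set side by side per kb of exon, and for the 5 members listed with 1 model. Exon length joined the exons of all RefSeq TAIR10.1 transcripts, 6 for IDM1, 2 for DML2 and 1 for the others. Reads were counted on 1 model, so the levels of IDM1 and DML2 may read low. The size of this effect was not tested. In wild type mock ROS1 had 18.2 ± 1.28 CPM per kb, MBD7 10.6 ± 0.619, IDM1 6.27 ± 0.403, APE1L 3.77 ± 1.31 and DML2 2.65 ± 0.40 (mean ± SD, n = 3). The libraries of APE1L and DML2 overlapped, and the other neighbours in this order did not. In ros1-4 mock MBD7 came first with 12.7 ± 3.58 CPM per kb, followed by ROS1 with 7.14 ± 0.74 and IDM1 with 6.43 ± 0.518, whose libraries overlapped. In ros1-3 mock MBD7 had 13.6 ± 1.49 and ROS1 11.2 ± 0.683 CPM per kb, without overlap. Thus ROS1 ranked highest of the 5 in wild type and below MBD7 in both mutant lines in mock.

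Across the 18 libraries, log2 CPM of IDM1 and MBD7 had a Pearson correlation of 0.62, the highest among pairs of tested members. ROS1 had -0.48 with MBD7 and -0.44 with IDM1. All genes tested share these libraries and their groups, so the values describe and test nothing. The genes most like ROS1 were AT2G14900 (0.91), AT5G27690 (0.90), AT1G08940 (0.89), AT2G07698 (0.88) and the metallothionein gene MT3 (0.86). For APE1L they were AT5G54970 (0.90), THY-2, a thymidylate synthase (0.90), and AT1G52270 (0.90). IDM1 was most like CPSF160, a subunit of the mRNA cleavage and polyadenylation complex (0.85), MBD7 most like SPT, a bHLH transcription factor (0.83), and DML2 most like AT2G41600 (0.78).

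Genes that work with the members were called with ABA in a few cases, and none was called between genotypes. Of 16 listed partners of the pathway 14 were tested, and 0 were called by edgeR or DESeq2 in the 6 comparisons between genotypes, where edgeR gave 12 unadjusted p below 0.05. With ABA 2 of the 14 fell in wild type, 1 rose and 2 fell in ros1-3, and 1 fell in ros1-4, where 38.5%, 38.2% and 38.2% of all genes tested were called. Of all genes 18.5%, 18.5% and 18.4% were called lower, and 20%, 19.7% and 19.8% higher. Over 13 alternatives per comparison, the partners that fell numbered 0 to 3, 1 to 2 and 1, with 0 in wild type under the covariate and 3 without wild type mock replicate 3. LIG1, the DNA ligase that seals the repaired strand, fell with ABA in ros1-4 by 0.54 on the log2 scale (SE 0.14) and in ros1-3 by 0.42 (SE 0.15), with edgeR adjusted p = 0.00412 and 0.027. In wild type it was at -0.28 (edgeR adjusted p = 0.112). The ros1-3 call of LIG1 was lost with DESeq2 and without ros1-3 ABA replicate 1 or 2 or ros1-3 mock replicate 1 or 3.

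IDM3, a partner of IDM1 and IDM2 in the same complex, rose in ros1-3 by 1.37 on the log2 scale (SE 0.37, edgeR adjusted p = 0.00587), from 1.45 ± 0.735 to 3.80 ± 0.883 CPM (mean ± SD, n = 3). It was at 0.09 in wild type and 0.41 in ros1-4, neither called, and its interaction in ros1-3 had an edgeR adjusted p = 0.994. HTA11, an H2A.Z histone, dropped by 0.63 there (SE 0.14, edgeR adjusted p = 0.000851). In wild type MET18, which serves iron-sulfur cluster assembly for ROS1, fell by 0.42 (SE 0.11, edgeR adjusted p = 0.00601), a call that ended when the share of multiply aligned reads entered the fit (log2 -0.28, edgeR adjusted p = 0.143). ARP6, a subunit of the complex that deposits H2A.Z, fell by 0.26 in wild type (SE 0.10, edgeR adjusted p = 0.0431), a call lost in 9 of 13 alternatives, with DESeq2, without any 1 of the wild type mock libraries and without wild type ABA replicate 1 or 2 among them. The median log2 fold change of the partners with ABA was -0.09 for wild type, -0.13 for ros1-3 and -0.12 for ros1-4, and that of all genes -0.01, -0.02 and -0.01.

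Of 6 listed DNA glycosylases that repair other bases, 4 were tested, and edgeR and DESeq2 called 0 in any comparison. With ABA 1 of the 4 had an unadjusted p below 0.05 in each genotype. UNG, the uracil glycosylase, was at -0.72 with ABA in wild type (edgeR adjusted p = 0.0858). SUVH3, 1 of 2 listed readers of methylation that activate ROS1, was not called either, with a log2 fold change of 0.18 in ros1-3 mock and 0.05 in ros1-4 mock. SUVH1 did not pass the filter.

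The opposing process, the setting and keeping of DNA methylation, was followed with 21 listed genes, of which 16 were tested. With ABA 6 fell in wild type, 4 fell in ros1-3 and 6 fell in ros1-4, while 0 rose. Of all genes tested 38.5%, 38.2% and 38.2% were called, and 18.5%, 18.5% and 18.4% were called lower. Over 13 alternatives per comparison those that fell numbered 4 to 7, 2 to 5 and 3 to 6, and 0 rose. The count in ros1-4 was 3 without ros1-4 mock replicate 3, where CMT2, DDM1 and VIM3 lost their calls. The count in ros1-3 was 2 with DESeq2, and when either ros1-3 mock replicate 3 or ros1-3 ABA replicate 2 was left out, where SUVH4 and CLSY1 lost theirs. Their median log2 fold change was -0.43, -0.21 and -0.43. MET1, the maintenance methyltransferase for CG sites, fell by 0.85, 0.79 and 0.65 in wild type, ros1-3 and ros1-4 (edgeR adjusted p = 0.000158, 0.000468 and 0.00298). CMT3, the methyltransferase for CHG sites, fell by 1.09, 0.99 and 0.89 (edgeR adjusted p = 2.41e-05, 0.000144 and 0.000381). Both genes kept these calls in all 13 alternatives per comparison. CLSY1, a chromatin remodeller of RNA-directed DNA methylation, also fell in all 3 genotypes, by 0.75, 0.55 and 0.70 (edgeR adjusted p = 0.00173, 0.0427 and 0.00803). Its call in ros1-3 was lost with DESeq2, with the covariate and without ros1-3 ABA or mock replicate 2 or 3, and in wild type with the covariate. Under the covariate its log2 fold change was -0.50 in ros1-3 (edgeR adjusted p = 0.0691) and -0.59 in wild type (edgeR adjusted p = 0.0518). Against wild type 0 of the 16 were called in either mutant line by edgeR or DESeq2. Unadjusted p below 0.05 numbered 3 and 2 in mock and 1 and 2 under ABA, for ros1-3 and ros1-4. AGO6, picked after its values were seen, read 3.70 to 5.76 CPM in wild type mock. It read 0.252 to 2.73 CPM in ros1-3 mock and 1.59 to 2.42 CPM in ros1-4 mock, both below wild type. Of all genes tested 16.6% and 11.6% had no overlap in these comparisons. Under ABA AGO6 overlapped between wild type and both mutant lines. MET1 was higher in ros1-3 than in ros1-4 in mock (log2 0.63, edgeR adjusted p = 0.0483), a call lost in 8 of 13 alternatives, including each ros1-4 mock library and ros1-3 mock replicates 1 and 3 left out.

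**Figure D5:**
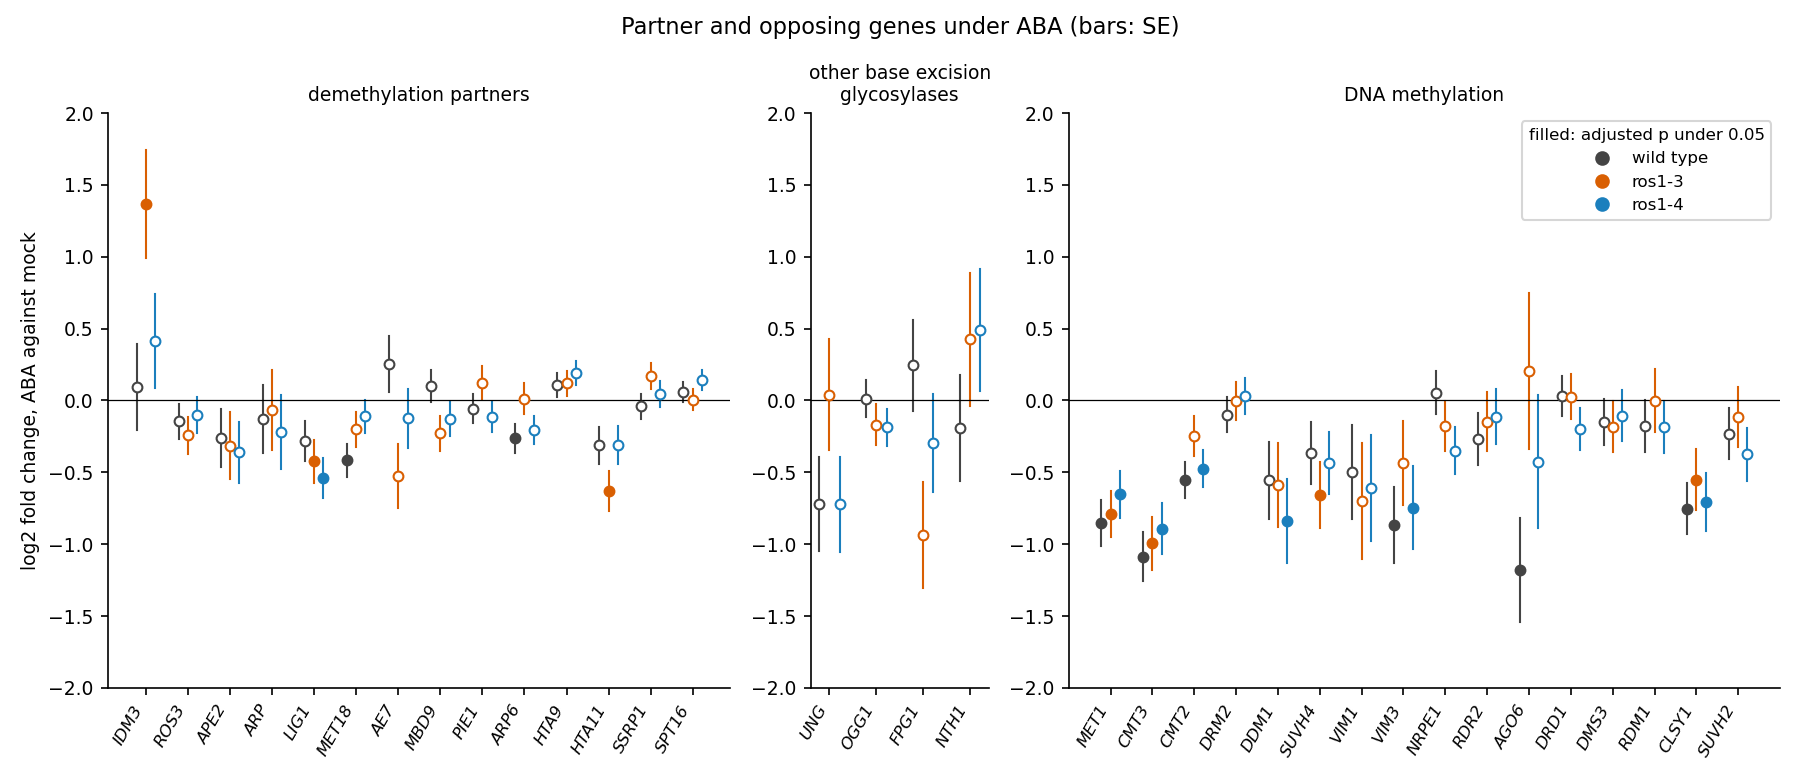
Log2 fold change of ABA against mock (vertical axis, bars SE) for the tested genes of 3 lists, coloured by genotype, with filled points at an edgeR adjusted p under 0.05. Partners and other glycosylases scatter around 0, while MET1, CMT3 and CLSY1 are below 0 in all 3 genotypes.

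Markers of cell types moved with ABA as well. The background is again 38.5%, 38.2% and 38.2% of all genes called in wild type, ros1-3 and ros1-4. In the same order 18.5%, 18.5% and 18.4% were called lower, and 20%, 19.7% and 19.8% higher. Among 4 tested genes of dividing cells, 3 fell in wild type, 1 fell in ros1-3 (2 with the covariate) and 2 fell in ros1-4 (1 without ros1-4 mock replicate 2), and PCNA1, a replication factor, fell by 1.15, 0.98 and 1.04. Their list summed to 80.8 to 102.4 CPM in wild type mock and 65.8 to 67.3 CPM in wild type ABA. It summed to 86.1 to 134.8 and 97.6 to 106.3 CPM in ros1-3, and to 83.8 to 103.5 and 64.3 to 92.7 CPM in ros1-4. Of 5 root markers 3 fell in each genotype, and their sum ranged over 74.5 to 113.6 CPM in wild type mock and 26.1 to 27.2 CPM in wild type ABA. In ros1-3 the root sum was 53.3 to 93.7 and 27.8 to 37.6 CPM, and in ros1-4 63.7 to 93.5 and 25.1 to 26.7 CPM. DESeq2 called CASP1, PHT1;1 and COBL9 with ABA in each genotype. PIP2;4, also part of the root sum, did not fall throughout. Its mock and ABA means were 7.55 and 7.95 CPM in wild type, 9.31 and 14.2 in ros1-3, and 9.71 and 8.35 in ros1-4. Of 5 leaf genes edgeR called 3, 2 and 2 higher, and 0 lower. RBCS1A and RCA had lower means under ABA in each genotype. For RBCS1A the mock and ABA means were 4886 and 4193 CPM in wild type, 3871 and 3499 in ros1-3, and 4787 and 4336 in ros1-4. DESeq2 called RBCS1A with ABA in wild type. The part of these shifts in the ABA changes of APE1L, LIG1, MET1 and CMT3 was not tested.

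A marker of dividing cells was also called between genotypes under ABA. CDKB2;1, a cell-cycle kinase gene, was higher in ros1-3 than in wild type by a log2 of 0.76 (SE 0.16, edgeR adjusted p = 0.0135), as 1 of 4 tested genes of dividing cells, against 1.72% of all genes called. The call was lost without ros1-3 ABA replicate 2 and without wild type ABA replicate 2. The median of the 4 genes was 0.60, and the summed levels of the list under ABA, given above, did not overlap between these groups. Of all genes tested 19.3% had no overlap in this comparison. The sum includes CDKB2;1 itself, with a mean of 36.3 CPM in ros1-3 and 21.4 CPM in wild type. It also includes MCM5, which was not tested and had a lower mean in ros1-3 (0.693 CPM) than in wild type (0.919 CPM). In the other 5 comparisons between genotypes edgeR and DESeq2 called 0 of the 4, with 4 unadjusted p below 0.05. The part of the shift in dividing cell markers in the lower ROS1 level of ros1-3 under ABA was not tested. Of the leaf markers edgeR called 0 between genotypes. DESeq2 called RBCS1A in ros1-3 against wild type in mock, and in ros1-3 against ros1-4 in mock and under ABA. RBCS1A read 3749 to 4001 CPM in ros1-3 mock and 4706 to 5084 CPM in wild type mock. Of all genes tested 16.6% had no overlap between these groups.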

How the data were processed

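Whole seedlings were sequenced as 18 mRNA libraries. The authors deposited raw counts of reads for each transcript model. Trim Galore 0.2.8, TopHat2 2.0.8, SAMtools, HTSeq 0.6.1 and the TAIR10 genome are named in the labels, per the submitters' processing notes. Summary rows without a gene (36.7% to 44.5% of a file) were dropped. Models were summed per locus, and 31912 of 32399 loci matched the TAIR10.1 annotation. Tests used edgeR 4.0.16 (R 4.3.3), with TMM scaling, filterByExpr and quasi-likelihood F tests from a single model of all 18 libraries and 15853 genes. A call means a Benjamini-Hochberg adjusted p under 0.05 over all genes tested. CPM values are scaled by library size and TMM factor. SE is approximate, from the fold change and its F value, and gives the interval bounds. The fit was tested on simulated data. Alternatives were RLE scaling, no filter, DESeq2 1.42.0, a replicate block, the compared groups alone, the multiply aligned share as a covariate, the first model only, and each library left out. All members are named, and up to 4 called genes of each list, by smallest p. Likeness lists the 5 genes with the highest correlation to ROS1 and up to 3 for each other member. The members and lists were chosen with earlier results of these data known.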

Additional observations from a re-analysis of the deposited data

Results flagged for a closer look

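DME was flagged because its reads moved opposite ways with ABA in wild type and ros1-3. Wild type had 2, 1 and 3 reads in mock and 0, 1 and 1 under ABA, while ros1-3 had 0, 0 and 0 reads in mock and 2, 1 and 2 under ABA. The interaction, fitted without the low count filter, had an edgeR adjusted p = 0.984 and so did not pass. Single reads decide this pattern, and their values in CPM differ with the depth of the library.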

How the results depend on the processing

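Over the 7 alternatives other than leaving out a library, the count of members called was the same in 9 of the 11 comparisons. With the share of multiply aligned reads as a covariate it was 0 for ros1-3 against wild type in mock (ROS1 -0.62) and 0 for ros1-3 against ros1-4 in mock (ROS1 0.56). When each library was left out in turn, the count ran from 0 to 1 for ABA in wild type, from 1 to 2 for ABA in ros1-4 and from 0 to 1 for ros1-3 against ros1-4 in ABA. ROS1 in the last of these ran from 0.30 to 0.53 on the log2 scale. The cause of these shifts was not tested.

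The ROS1 response to ABA in ros1-3 was near 0 and changed sign under 6 of these alternatives. It was 0.000364 with the compared groups alone, 0.00751 with DESeq2, 0.000157 with the first model, 0.0201 with the covariate, 0.00657 with no low count filter and 0.00568 with RLE scaling. With single libraries left out it ran from -0.0608 to 0.0826, the ROS1 interaction in ros1-4 from -0.195 to 0.0345, and APE1L in ros1-3 against ros1-4 in ABA from -0.352 to 0.0143. None of these passed.

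Replicate numbers did not pair the samples: deviations of same-numbered libraries had a median correlation of -0.03 over 45 pairs, and 1 exceeded 0.1. The replicate block changed no call of a member. Over 32 other pairs of member and comparison, 452 alternatives gave 0 calls and 36 changes of sign. Alternatives for genes and counts of the lists and for 2 neighbours of ROS1 were added after the data were seen. APE1L, at 13 to 61 reads per library, and the 4 members under 50 reads in all are the values that depth limits most.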
